A study of Homo sapiens with 4 samples.

Results

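KIT and 8 other receptors that blood cells use to read growth factors were followed across 4 microarrays, 1 per condition, in 2 cell lines with and without a demethylating drug. The receptors were KIT, FLT3 and CSF1R, which are receptor tyrosine kinases, and CSF2RA, CSF2RB, CSF3R, IL3RA, EPOR and IL2RG, which are chains of cytokine receptors. They are 9 of the 43311 gene names on the array, and every gene probe that carried one of these names was used, 13 in all. The group was chosen by measured values, since the KIT signal of these same arrays was already known, so the levels and ratios below are a description and carry no test.

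The MDS-L line comes from a patient with a myelodysplastic syndrome. Its derivative MDS-L/CDA resists 5-azacytidine (AZA), a DNA-demethylating cytidine analogue, after transduction with the CDA gene. Both lines were kept in medium with 20 ng/mL IL-3, the ligand of the IL3RA and CSF2RB chains, and each was treated for 72 h, with DMSO at 0.1% as the vehicle or with AZA at 1 μM. The IL-3 concentration is that of the labels, and the methods of the study give a different one. The 4 conditions were therefore MDS-L vehicle, MDS-L AZA, MDS-L/CDA vehicle and MDS-L/CDA AZA. The sources used here do not say whether MDS-L/CDA is a single clone. One label field gives the opposite treatment for MDS-L AZA and for MDS-L/CDA vehicle, and some titles give the dose in mM, while the remaining fields give the treatments and dose used here.

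Each receptor of the group passes a signal from a growth factor outside the cell to kinases inside it. KIT, FLT3 and CSF1R carry a kinase of their own and bind stem cell factor, FLT3 ligand and colony-stimulating factor-1. KIT is known for its role in haematopoietic stem and progenitor cells, where it is gradually lost on maturation, and in mast cells, where it is kept. The cytokine receptor chains have no kinase and borrow JAK kinases, which phosphorylate STAT proteins. IL3RA and CSF2RA give the specificity for IL-3 and GM-CSF, and both signal through the shared CSF2RB chain.

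Signal intensities were scaled so that 1 is the 75th percentile of the array, which lay between 37.3 and 52.9 before scaling. The flag of the scanner software for a signal well above background was met by 32.6% to 36.5% of the probes of an array, and the lowest such signal was between 0.19 and 0.30 on the scaled axis. A probe under that flag has only an upper bound, and a ratio against it is given as "at least" a value, computed against the higher of its own signal and that lowest signal. With 1 array per condition there was no replicate check of any difference. The only measure of error is the spread between the repeat spots that some probes have, which gives a ratio of 2 arrays an SD of 0.30 to 0.40 on the log2 scale and covers neither the culture nor the hybridization. CD34, CD33, PTPRC, MYB and 5 more of the 10 progenitor markers listed for such a line were well above background on all 4 arrays, and MPO was on none.

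The promoters of the 2 receptors that AZA-treated MDS-L cells showed at higher signal are given because CpG is where DNA of these cells can be methylated and AZA is a demethylating drug. Each line holds the 250 bases before a transcription start in RefSeq (GRCh38.p14), 5′ to 3′ on the gene's own strand, and capitals mark each CpG. The KIT stretch is chr4:54657707-54657956 on the plus strand and holds 34 CpG. The CSF1R stretch is chr5:150086555-150086804 on the minus strand, before the inner of 2 starts listed for the gene, and holds 2. No methylation was measured on these arrays.
KIT upstream: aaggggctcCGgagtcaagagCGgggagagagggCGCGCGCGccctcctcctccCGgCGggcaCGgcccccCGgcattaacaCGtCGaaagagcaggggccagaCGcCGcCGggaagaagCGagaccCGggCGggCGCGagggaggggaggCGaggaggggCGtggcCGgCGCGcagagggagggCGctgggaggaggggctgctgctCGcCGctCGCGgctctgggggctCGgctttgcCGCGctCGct
CSF1R upstream: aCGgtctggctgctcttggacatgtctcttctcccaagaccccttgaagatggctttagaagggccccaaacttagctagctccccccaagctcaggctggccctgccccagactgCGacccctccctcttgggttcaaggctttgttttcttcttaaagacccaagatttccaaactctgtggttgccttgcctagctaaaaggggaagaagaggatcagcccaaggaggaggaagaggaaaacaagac

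Counted over 300 bases, with 50 bases after the start included, the KIT promoter held 38 CpG, and 90.1% of the 35093 promoter windows in RefSeq held fewer. FLT3 followed with 34 and EPOR with 13. The remaining windows of CSF1R, CSF2RA, CSF3R, IL3RA and IL2RG held 3 to 9, against a median of 14 over all windows, and no entry for CSF2RB was at hand. The signals of KIT and FLT3 are given below, and a link between CpG count and signal was not tested. The windows were also searched on both strands for AGATAA, the motif of the GATA factors, which is in 10.3% of all windows and was present in EPOR alone among the 8 receptors with an entry. GAGGAA, the core of the site of the myeloid factor PU.1, is in 27.9% of all windows and was present in FLT3, CSF2RA, IL2RG and the inner starts of CSF1R and CSF3R. TTCNNNGAA, the STAT motif, is in 7.66% of all windows and was present in IL3RA. KIT held none of the 3 motifs in this window.

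**Figure D1:**
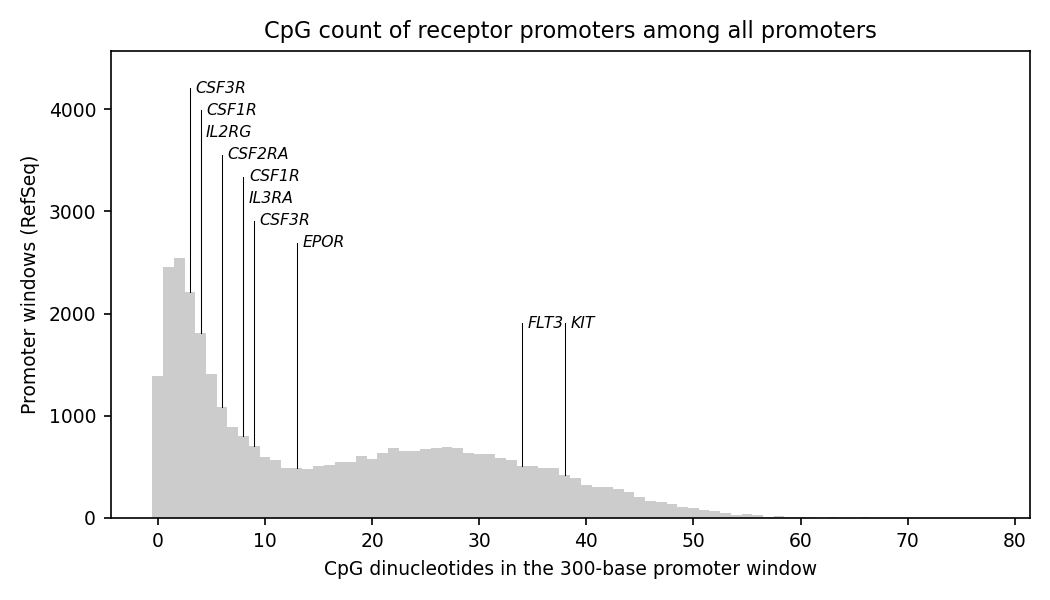
CpG dinucleotides in the promoter window of each receptor (x axis, count per 300 bases) over the number of RefSeq promoter windows with that count (grey bars, y axis). The lines for KIT and FLT3, at 38 and 34, stand to the right of the other receptors, which lie between 3 and 13. CSF1R and CSF3R have 2 starts each, and CSF2RB is not shown.

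KIT was measured with 3 probes along the gene. The probe with the highest mean signal lies at chr4:55606511-55606570 of hg19, 36.5 kb beyond the start-side probe and 12.9 kb beyond the middle one. The sequences of the latter are printed because the 3 probes of the gene did not give the same readout. By background knowledge the start-side probe matches the coding sequence of the extracellular domain (chr4:55569965-55570024) and the middle probe that of the juxtamembrane region (chr4:55593626-55593685). Both are on the plus strand of hg19, 5′ to 3′, in lower case throughout.
KIT start-side probe: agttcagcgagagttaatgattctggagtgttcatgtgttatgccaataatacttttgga
KIT middle probe: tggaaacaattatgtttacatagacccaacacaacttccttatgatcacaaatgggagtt

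KIT was much brighter in MDS-L AZA than on any other array. The scaled signal of its brightest probe was 0.503 in vehicle and 23.8 with AZA for MDS-L cells, and 0.346 in vehicle and 1.24 with AZA for MDS-L/CDA cells, well above background on all 4 arrays. Before scaling these were intensities of 26.4, 1261, 14.1 and 46.2, with an error given by the scanner software of 12.5%, 10.0%, 18.0% and 11.1%. The lowest of them, 14.1, was close to the 11.1 at which signals of that array began to be well above background. AZA over vehicle was 47.3-fold in MDS-L cells, or 5.57 on the log2 scale, the fourth highest value of the 15104 genes measured on both MDS-L arrays. In MDS-L/CDA cells it was 3.58-fold (log2 1.84), which ranked 30 among 14137 genes. The log2 ratio was 3.73 larger in MDS-L than in MDS-L/CDA cells, a 13.2-fold difference that ranked 3 among 13962 genes, of which the central 95% lay between -1.34 and 1.21.

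The start-side probe of KIT was well above background in MDS-L AZA alone, at 0.987, and read 0.0427 without AZA. For MDS-L/CDA cells it read 0.0600 without and 0.0594 with AZA. Its AZA over vehicle ratio in MDS-L cells was at least 5.20-fold. The middle probe did not reach the background flag on any of the 4 arrays, with values of 0.0473 to 0.0710. Thus 2 of the 3 probes showed KIT signal in MDS-L AZA, and the smaller ratio of MDS-L/CDA cells rests on the brightest probe alone. With a different background correction (normexp), the KIT ratio in MDS-L/CDA cells was 0.55 on the log2 scale and no longer 2-fold, while in MDS-L cells it was 4.17.

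Without AZA the 2 lines differed little in KIT. MDS-L/CDA over MDS-L was 0.688 in vehicle (log2 -0.54), within 2 SDs of the error of a ratio but past 2-fold (log2 -1.06) with arrays scaled to their medians, and 0.0520 under AZA (log2 -4.27). Under AZA only 8 of 14542 genes had a lower ratio between the lines. The start-side probe was at least 3.34-fold lower in MDS-L/CDA AZA than in MDS-L AZA.

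Some marker genes of several blood cell types were brighter in MDS-L AZA, as KIT was, while others of the same lists were not. For mast cells, basophils and eosinophils, the summed scaled signal of the 12 markers, KIT not among them, was 40.0 without and 281 with AZA for MDS-L cells, and 16.2 without and 69.6 with AZA for MDS-L/CDA cells. Of these markers 8, 8, 4 and 6 were well above background in the same order. TPSAB1, CPA3, HDC and FCER1A were so on all 4 arrays, whereas CMA1, EPX, IL5RA and ENPP3 were on none. The 6 erythroid markers other than EPOR summed to 0.717 without and 11.0 with AZA for MDS-L cells. For MDS-L/CDA cells the sums were 1.11 and 1.17. In MDS-L AZA HBG1 alone read 9.48, and none of the 6 was well above background in MDS-L vehicle. ALAS2 and AHSP were below the background flag throughout. The 7 megakaryocyte and platelet markers summed to 11.2 and 28.0 for MDS-L and to 14.97 and 26.3 for MDS-L/CDA cells, and the 9 T and NK cell markers to 15.1 and 25.2 and to 16.5 and 20.4. The 10 progenitor markers summed to 565 without and 444 with AZA for MDS-L cells, and to 654 and 606 for MDS-L/CDA cells. MYB, the brightest of them, read 373 without and 274 with AZA for MDS-L cells. Of the 9 measured in MDS-L cells, 7 had AZA over vehicle ratios below 1 and 2, GATA2 and CD33, above 1. CD38 and HLA-DRA were lowest, at 0.359 and 0.329, and GATA2 was highest, at 2.46. In MDS-L/CDA cells these ratios were 0.725 for CD38, 0.48 for HLA-DRA and 2.01 for GATA2. In bulk RNA, more cells of a type and more RNA per cell cannot be told apart, and the part of such cells in the KIT signal was not tested.

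CSF1R, the receptor for colony-stimulating factor-1 on the monocyte lineage, was seen with AZA only. Its probe (chr5:149432861-149432920 of hg19, minus strand) read 0.182 without and 0.922 with AZA for MDS-L cells, and 0.0649 without and 0.454 with AZA for MDS-L/CDA cells, and both vehicle signals were not well above background. The AZA over vehicle ratio was at least 4.86-fold for MDS-L and at least 1.67-fold for MDS-L/CDA cells, and the latter bound lay within 2 SDs of the error. Under AZA, MDS-L/CDA over MDS-L was 0.492, just past 2-fold. With normexp the ratio in MDS-L cells was 0.65 on the log2 scale, under 2-fold. Of the 7 monocyte and macrophage markers on the array, CSF1R included, 1, 2, 0 and 2 were well above background in the 4 conditions in the order above, and their part in the CSF1R signal was not tested.

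FLT3, a receptor of early progenitors and blasts, did not reach the background flag anywhere. Its probe (chr13:28577993-28578051 of hg19, minus strand) read 0.0890, 0.0476, 0.0679 and 0.0605, and no ratio is given.

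**Figure D2:**
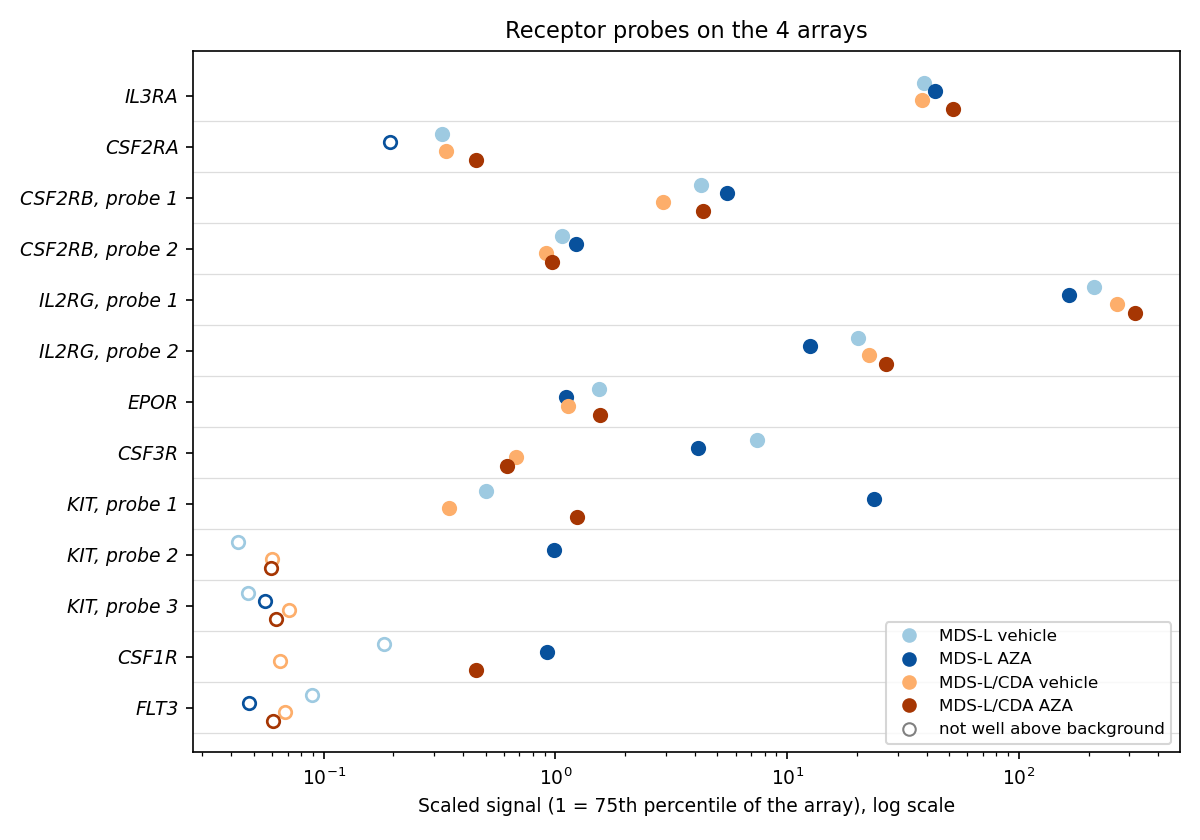
Scaled signal of the 13 receptor probes (x axis, log scale, 1 is the 75th percentile of the array) on the 4 arrays. Filled symbols are well above background and open ones are not. KIT probe 1 is the brightest, probe 2 the start-side and probe 3 the middle one. The MDS-L AZA symbol of KIT probe 1, at 23.8, stands apart from the other 3, and both MDS-L symbols of CSF3R lie to the right of both MDS-L/CDA symbols.

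IL3RA, the chain that binds the IL-3 in the medium, was bright on all 4 arrays. Its signal (chrX:1501487-1501546 of hg19) was 39.2 without and 43.4 with AZA for MDS-L cells, and 38.2 without and 51.9 with AZA for MDS-L/CDA cells. The AZA over vehicle ratio was 1.11 for MDS-L and 1.36 for MDS-L/CDA cells, and between the lines it was 0.976 in vehicle and 1.20 under AZA. All 4 ratios were within 2 SDs of the error, and those in MDS-L cells and between the lines under AZA changed side of 1 with another scaling.

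CSF2RB, the signalling chain shared by the IL-3, GM-CSF and IL-5 receptors, differed by less than 2-fold in each comparison with both of its probes, which lie at chr22:37334598-37334657 and chr22:37334388-37334447 of hg19. The brighter one read 4.24, 5.51, 2.90 and 4.35 in the order above. It gave log2 ratios of 0.38 and 0.59 for AZA over vehicle in the 2 lines, and ratios of 0.683 and 0.790 for MDS-L/CDA over MDS-L in vehicle and under AZA. The dimmer one read 1.07, 1.22, 0.910 and 0.971, with ratios of 1.15 and 1.07 for AZA and of 0.853 and 0.793 between the lines. None of these was beyond 2 SDs of the error, and both probes were below 1 in MDS-L cells when arrays were scaled to their medians.

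CSF2RA, the GM-CSF-specific chain, was dim on every array. Its probe is given as chrX:1407773-1409280 of hg19, a span of 1508 bases for a probe of 60, and so crosses an intron. It read 0.324 without AZA and 0.194, not well above background, with AZA for MDS-L cells, and 0.336 without and 0.456 with AZA for MDS-L/CDA cells. In MDS-L cells the vehicle signal was at least 1.67-fold higher than with AZA, whereas in MDS-L/CDA cells AZA over vehicle was 1.36, the latter within 2 SDs of the error. Under AZA the signal of MDS-L/CDA was at least 2.35-fold that of MDS-L, and in vehicle it was 1.04-fold. The ratio under AZA was below 2-fold without scaling and with normexp. It was also not counted where both arrays had to be well above background, or where a Z score of 2 was required as well. The probes of CSF2RA and IL3RA, neighbours on the pseudoautosomal part of the X chromosome, lie 93.0 kb apart.

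CSF3R, the G-CSF receptor of the granulocyte lineage, differed more between the lines than between the treatments. Its probe (chr1:36931696-36931755 of hg19, minus strand) read 7.39 without and 4.14 with AZA for MDS-L cells, and 0.674 without and 0.616 with AZA for MDS-L/CDA cells, well above background on all 4 arrays. Both MDS-L signals were above both MDS-L/CDA signals. MDS-L/CDA over MDS-L was 0.0911 in vehicle (log2 -3.46), or 11.0-fold lower, the lowest ratio of all 14510 genes measured on both vehicle arrays. Under AZA it was 0.149 (log2 -2.75), with 33 of 14542 genes lower. It stayed 2-fold lower in MDS-L/CDA cells under each of the 12 alternatives run, with log2 ratios of -3.98 to -2.27 in vehicle among the other scalings and corrections. AZA over vehicle was 0.560 (log2 -0.84) for MDS-L cells, beyond 2 SDs of the error, and 0.914 for MDS-L/CDA cells, within them.

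CXCR2 and MMP9, the other neutrophil markers measured, differed less between the lines than CSF3R. MDS-L/CDA over MDS-L was 0.697 for CXCR2 and 0.746 for MMP9 in vehicle. Under AZA it was 1.16 for CXCR2 and 0.452, past 2-fold, for MMP9. The 6 neutrophil markers on the array other than CSF3R summed to 1.75 without and 5.37 with AZA for MDS-L cells. For MDS-L/CDA cells they summed to 1.40 without and 3.04 with AZA. LTF, CAMP, CEACAM8 and ELANE were below the background flag throughout. Of the 36 genes within 1000 kb of the CSF3R probe, 19 were measured in vehicle and 0 of them differed 2-fold between the lines. Over all genes 1.97% were 2-fold higher and 2.64% 2-fold lower there. Under AZA 20 were measured and 3 were at least 2-fold lower in MDS-L/CDA cells, beside 5.23% of all genes. These were C1orf216 at 0.260, NCDN at 0.489 and TEKT2, whose MDS-L/CDA signal was not well above background, at 0.340 or less.

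EPOR, the erythropoietin receptor, read 1.55, 1.11, 1.14 and 1.57 in the same order (chr19:11488607-11488666 of hg19, minus strand). Its AZA over vehicle ratio was 0.716 for MDS-L and 1.37 for MDS-L/CDA cells, on opposite sides of 1 and each within 2 SDs of the error. MDS-L/CDA over MDS-L was 0.736 in vehicle and 1.41 under AZA, and the latter was 0.99 (log2 -0.01) without scaling.

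IL2RG, the common gamma chain of the receptors for IL-2, IL-4, IL-7, IL-9, IL-15 and IL-21, was bright with both probes. The brighter probe (chrX:70327271-70327330 of hg19, minus strand) read 211 without and 164 with AZA for MDS-L cells, and 264 without and 317 with AZA for MDS-L/CDA cells. The second (chrX:70328480-70328539) read 20.2, 12.6, 22.5 and 26.8. The pair gave AZA over vehicle ratios of 0.781 and 0.624 for MDS-L and of 1.20 and 1.19 for MDS-L/CDA cells. Under AZA, MDS-L/CDA over MDS-L was 1.93 and 2.12, on the near and far side of 2-fold, and both were beyond 2 SDs of the error. Without scaling both were under 2-fold and within 2 SDs of the error.

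AZA over vehicle was at least 2-fold for 2 of the 8 receptors measured in MDS-L cells, KIT and CSF1R, beside 6.73% of the 17172 genes measured there, and at most 0.5 for none, beside 6.03% of genes. In MDS-L/CDA cells it was at least 2-fold for 1 of 8, KIT, beside 2.53% of 15393 genes, and at most 0.5 for none, beside 3.07%. MDS-L/CDA over MDS-L in vehicle was at least 2-fold for none of the 7 receptors measured, beside 1.97% of 16015 genes, and 2-fold lower for 1, CSF3R, beside 2.64%. Under AZA it was at least 2-fold for 1 of 8, CSF2RA, beside 5.43% of 16739 genes, and 2-fold lower for 3, KIT, CSF1R and CSF3R, beside 5.23%. These counts are on the main probe of each gene, the one with the highest mean signal, and the comparisons share arrays. With arrays scaled to their medians, CSF2RA, CSF3R and EPOR were also 2-fold lower with AZA in MDS-L cells, at log2 ratios of -1.28, -1.38 and -1.02, while the median of all genes moved by -0.54 in the same comparison.

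**Figure D3:**
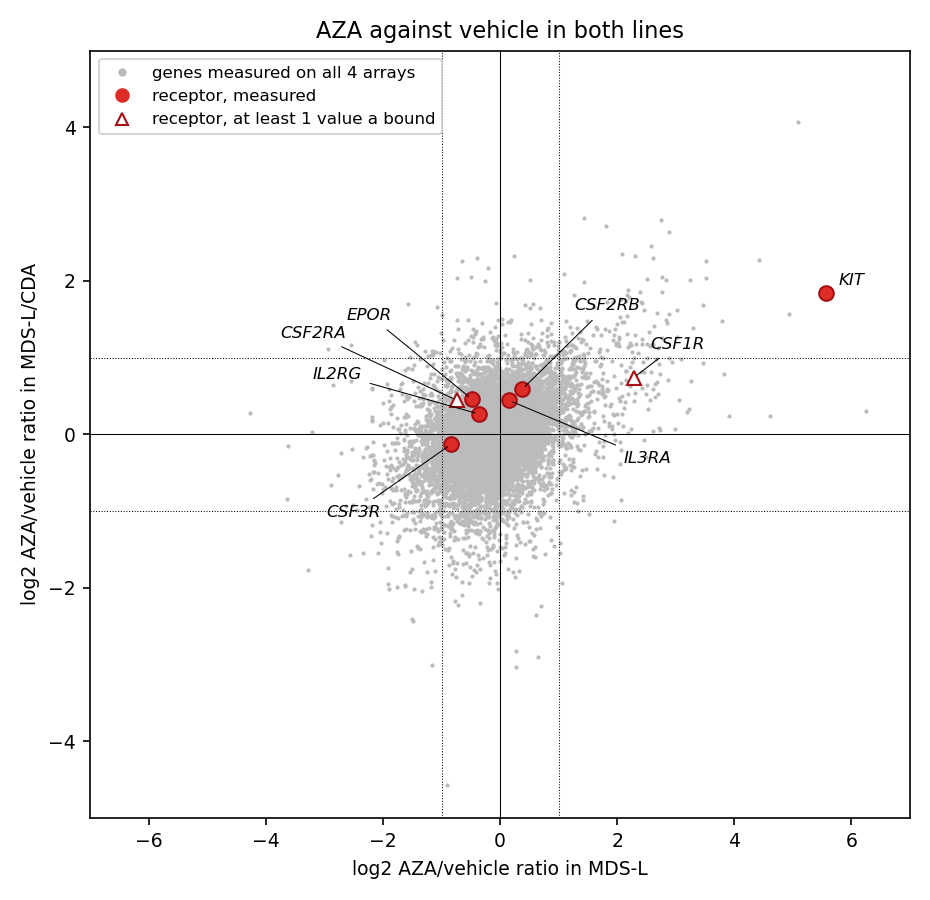
AZA over vehicle log2 ratios in MDS-L (x axis) and MDS-L/CDA cells (y axis). Grey points are the 13962 genes measured on all 4 arrays, filled circles receptors measured on all 4, and triangles receptors with at least 1 ratio that is a bound. Dotted lines mark 2-fold. KIT lies at 5.57 and 1.84, and EPOR, IL2RG and CSF2RA lie left of 0 and above 0.

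**Figure D4:**
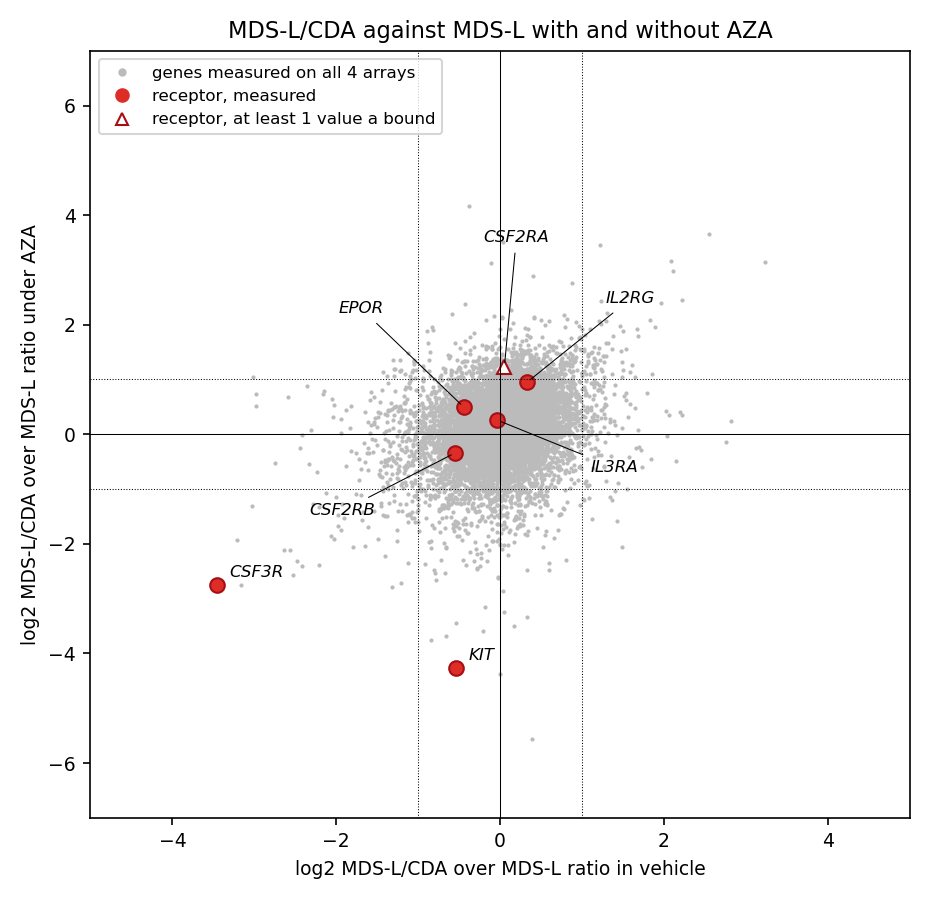
MDS-L/CDA over MDS-L log2 ratios in vehicle (x axis) and under AZA (y axis), with symbols and dotted lines for the same things as in the plot of AZA ratios. CSF3R lies at -3.46 and -2.75 and KIT at -0.54 and -4.27. FLT3 and CSF1R, not measured in vehicle in either line, are not shown.

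No gene around KIT had a measured or bounded ratio of 2-fold with AZA, beside 6.73% of all genes 2-fold higher in MDS-L and 2.53% in MDS-L/CDA cells. Of the 22 genes within 1000 kb of its brightest probe, 7 were measured in MDS-L cells and 0 differed 2-fold in any of the 4 comparisons. With so few genes, a count of 0 is near the shares over all genes. SRD5A3-AS1 has only a bound, at least 1.72-fold with AZA in MDS-L cells. PDGFRA and KDR, the receptor tyrosine kinase genes next to KIT, were below the background flag throughout. Among the 13956 genes outside the group that were well above background on all 4 arrays, the 5 with the profile most like that of KIT were KCNK5, GAGE2B, H19, TNF and SNAR-G1. Likeness was the distance between log2 profiles centred on their means, and it was 0.69 for KCNK5 and 1.46 for SNAR-G1, against a median of 4.98 over the genes. KCNK5, which encodes a potassium channel, had AZA over vehicle ratios of 30.8 for MDS-L and 2.96 for MDS-L/CDA cells, and TNF, an inflammatory cytokine, had 21.4 and 4.82.

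The ligands of the group were mostly not seen. Of 16 listed, 13 were below the background flag throughout, among them KITLG, IL3, CSF2, CSF3 and EPO. CSF1, the ligand of CSF1R, read 1.09 without and 2.61 with AZA for MDS-L cells, and 0.915 without and 3.23 with AZA for MDS-L/CDA cells, so that AZA over vehicle was 2.39-fold and 3.53-fold in the 2 lines. IL7, a lymphoid growth factor, was 2.49-fold in MDS-L cells, and FLT3LG was 2.41-fold higher in MDS-L/CDA than in MDS-L cells under AZA.

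Of 23 other cytokine receptor chains, 13 were measured in MDS-L cells and 5 had an AZA over vehicle ratio of at least 2, beside 6.73% of all genes. IL21R, which pairs with IL2RG, was 4.18-fold, from 2.34 to 9.77, and IL2RB, which also pairs with IL2RG, was 2.47-fold. IL9R was 2.21-fold, IL2RA at least 2.87-fold and IL10RA, named after its value was seen, at least 2.10-fold. Of 11 chains measured in MDS-L/CDA cells 2 had such a ratio, IL21R at 3.39-fold and IL2RB at 2.18-fold, beside 2.53% of all genes. Not all partners of IL2RG were past 2-fold with AZA in both lines. IL2RG itself had ratios of 0.781 and 0.624 with its probes in MDS-L cells, and of 1.20 and 1.19 in MDS-L/CDA cells. IL9R, past 2-fold in MDS-L cells, was 1.40-fold in MDS-L/CDA cells. IL4R had log2 ratios of -0.43 for MDS-L and 0.084 for MDS-L/CDA cells, and IL7R was below the background flag throughout. The median log2 ratio of the measured chains was 0.50 for MDS-L and 0.33 for MDS-L/CDA cells, against -0.13 and 0.02 over all genes, and the former was -0.04 with arrays scaled to their medians. IL5RA was below the background flag throughout.

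Among 13 other receptor tyrosine kinases, 7 were measured in MDS-L cells. TIE1, an endothelial receptor also seen in blood cells, was 2.03-fold with AZA in MDS-L/CDA cells and 1.87-fold in MDS-L cells. INSR, the insulin receptor, was 2.21-fold higher in MDS-L/CDA than in MDS-L cells in vehicle. The list had a median of -0.33 for MDS-L and 0.16 for MDS-L/CDA cells on the log2 scale.

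All 11 JAK and STAT genes were measured on every array. In MDS-L cells AZA over vehicle was 2.03-fold for STAT5A, a main STAT of the IL-3 and KIT receptors, and 0.446 for STAT6, which serves the IL-4 receptor. These were 1 higher and 1 lower of 11, beside 6.73% and 6.03% of all genes. In MDS-L/CDA cells none was 2-fold in either direction, beside 2.53% higher and 3.07% lower of all genes. STAT5A read 3.97, 8.07, 3.66 and 2.90 in the order above, highest in MDS-L AZA as KIT was. STAT5B did not share this pattern and read 8.10, 4.36, 7.09 and 3.98. Its AZA over vehicle ratio was 0.538 for MDS-L and 0.562 for MDS-L/CDA cells. Under AZA, MDS-L/CDA over MDS-L was 0.359 for STAT5A, 2.27 for STAT4 and 2.01 for STAT6. Of 18 adaptors and kinases downstream of the receptors, 17 were measured in MDS-L and 16 in MDS-L/CDA cells. Only SOS1, an exchange factor for RAS, was 2-fold with AZA in MDS-L cells, at 2.17, and none was in MDS-L/CDA cells. These counts are near the 6.73% and 2.53% of all genes that were 2-fold higher. Under AZA, PIK3R1 and SYK were 2.22-fold and 2.01-fold higher in MDS-L/CDA than in MDS-L cells. The median log2 ratios of both lists for AZA over vehicle lay between -0.13 and 0.06.

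Of 20 inhibitors of receptor signalling, 16 were measured in MDS-L cells and 2 were at least 2-fold with AZA, beside 6.73% of all genes. In MDS-L/CDA cells it was 1 of 17, beside 2.53%. SH2B3, also named LNK, was 3.10-fold with AZA and SOCS3 2.33-fold, and SOCS3 was 2.24-fold in MDS-L/CDA cells. SH2B3 was also 2.42-fold higher in MDS-L/CDA than in MDS-L cells in vehicle. Of 16 genes listed as STAT5 targets, 15 were measured in MDS-L cells, with 4 at least 2-fold and 1 at most 0.5 with AZA, beside 6.73% and 6.03% of all genes. CCND1, the cyclin D1 gene, was at least 7.38-fold, PIM2, a survival kinase, 4.67-fold, and IL2RA and SOCS3 were as above, while GFI1, a repressor of the granulocyte lineage named after its value was seen, was -1.01 on the log2 scale. PIM2 was 2.27-fold in MDS-L/CDA cells, where CCND1 was not well above background. Other targets of the same list, such as CISH at log2 -0.67 and MYC at -0.52 in MDS-L cells, were within 2-fold. The median of the list was 0.14 for MDS-L and 0.11 for MDS-L/CDA cells, and it was -0.40 in the former with arrays scaled to their medians.

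Of 17 transcription factors known to act on genes of the group, all were measured in MDS-L cells and 3 had an AZA over vehicle ratio of at least 2, beside 6.73% of all genes. GATA1, the erythroid and mast cell factor, read 1.26 without and 14.4 with AZA for MDS-L cells, and 0.507 without and 2.08 with AZA for MDS-L/CDA cells. Its ratio was 11.4-fold for MDS-L and 4.10-fold for MDS-L/CDA cells, so it was brightest in MDS-L AZA, as KIT was. GATA2, a factor of progenitors and mast cells, was 2.46-fold and 2.01-fold. MITF, a regulator of KIT in mast cells and melanocytes, was well above background in MDS-L AZA alone, at 0.799, at least 4.21-fold over vehicle. TAL1 was 2.35-fold with AZA in MDS-L/CDA cells, where 3 of 16 measured factors had a ratio of at least 2, beside 2.53% of all genes. In vehicle, GATA1 and TAL1 were lower in MDS-L/CDA than in MDS-L cells, at 0.402 and 0.457, and under AZA GATA1 was at 0.144 and MITF at least 2.70-fold lower. SPI1, MYB and RUNX1 were within 2-fold in both lines.

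**Figure D5:**
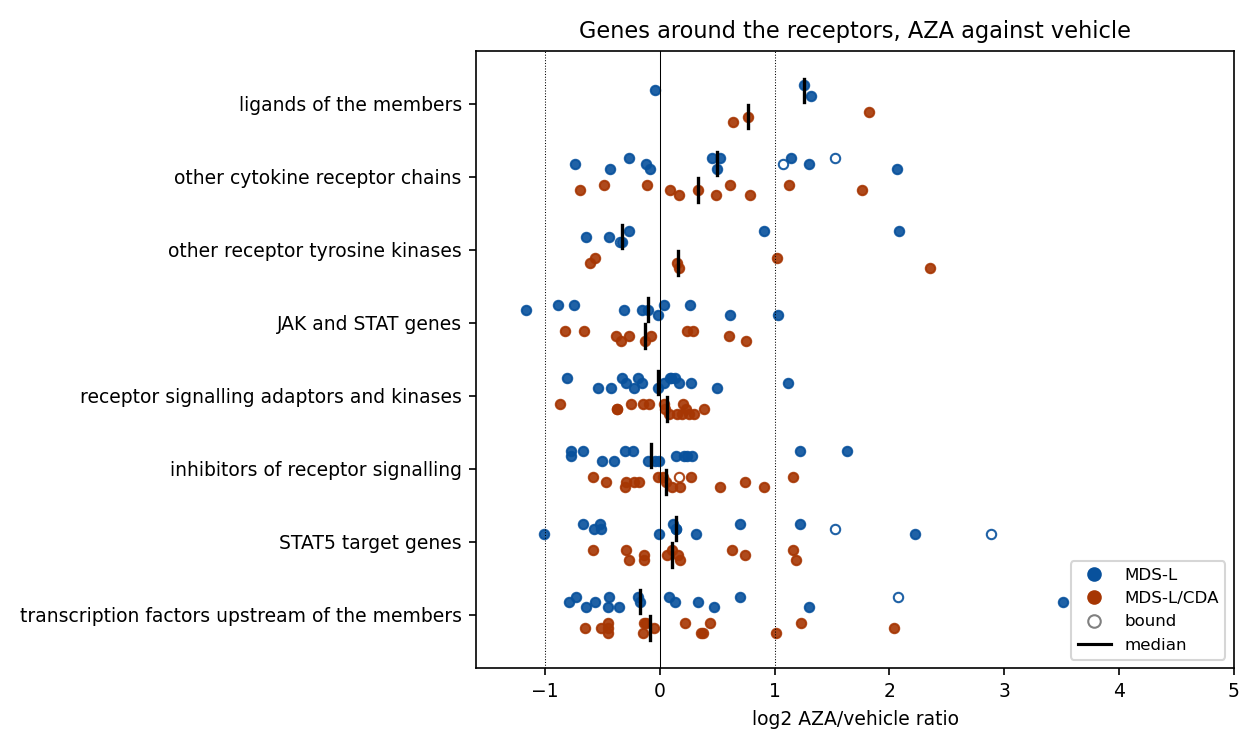
AZA over vehicle log2 ratios (x axis) of the measured genes of 8 lists around the receptors, in MDS-L (blue) and MDS-L/CDA cells (brown). Filled points are measured on both arrays of the pair, open points are bounds, bars are medians and dotted lines mark 2-fold. The medians of all 8 lists lie between -0.33 and 1.25, and the point at 3.51 among the transcription factors is GATA1.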

How the data were processed

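RNA of 4 conditions, 1 array each, was hybridized with a single dye (Cy3) to Agilent arrays. The authors deposited the scanner output of each array (Agilent Feature Extraction 10.7.1.1, probe positions in hg19), in which the intensity of a spot is background-subtracted within the array and not normalized between arrays, with flags for outliers and for signals well above background. They also deposited a value table of intensity, normalized between arrays in a way not given in the sources used here, which was used as an alternative after it had been set against the scanner values (Pearson r across probes of at least 0.999 for log2 values).

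Control spots and outlier spots were left out, processed intensity was converted to log2, repeat spots of a probe were averaged, and the 75th percentile of the array was subtracted. Of 58201 gene probes 58185 were kept. The main probe of a gene was the one with the highest mean signal. Ratios needed a signal well above background on the brighter array and used the bound described with the results on the dimmer one. A gene was counted at a ratio of 2 in either direction. No test was made, since the receptors were chosen by values of these arrays and each condition has 1 array. An additive fit of line and treatment, which would leave 1 residual degree of freedom, was not run. The number of arrays limits the precision. The study called a gene at a ratio of 2 and a Z score of 2, and here the Z score, whose formula is not given in the sources used here, was computed in 10 bins of signal as an alternative. The ratio rule was tested on simulated data. The simulated arrays of a pair had the same background flags, so the bound rule was not tested.

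The receptors and all lists (8 around the receptors with 134 entries, and 9 of cell type markers) were chosen with earlier results of these data known. The text names every probe of the receptors, up to 4 genes per list and comparison with the largest ratio past 2-fold, and the 5 genes with the profile most like that of KIT. Some genes that this rule picks are not reported here. Exceptions are marked, apart from genes given for signal below background or within 2-fold. Alternatives were quantile normalization, median scaling, no scaling, normexp with an offset of 50, the value table, 2 other filters on dim probes, ratios of 1.5 and 3, 2 other uses of several probes, and the Z score. Promoter windows are those of RefSeq on GRCh38.p14. Normexp was run with limma 3.58.1 in R 4.3.3, and the rest with Python 3.11.15, numpy 2.4.6, pandas 2.3.3 and matplotlib 3.10.9.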

Additional observations from a re-analysis of the deposited data

Results flagged for a closer look

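The AZA over vehicle ratio of 4 receptor probes was below 1 in MDS-L and above 1 in MDS-L/CDA cells, a difference that was not tested, with 1 array per condition. On the log2 scale the ratio in MDS-L minus that in MDS-L/CDA cells was -1.18 for CSF2RA, -0.94 for EPOR, -0.62 for the brighter IL2RG probe and -0.93 for the second one. The value for CSF2RA rests on a signal in MDS-L AZA that was not well above background. Over the 13962 genes measured on all 4 arrays, 38.5% had ratios of opposite sign and 27.0% were below 1 in MDS-L and above 1 in MDS-L/CDA cells.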

How the results depend on the processing

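Over the alternatives run no KIT ratio changed its sign. The log2 ratio of KIT with AZA in MDS-L cells, 5.57, was 5.02 with median scaling, 4.17 with normexp and 5.05 as a mean over measured probes. In MDS-L/CDA cells, 1.84 became 0.55 with normexp and 0.91 as that mean. The mean is over probes well above background on at least 1 of the 4 arrays, without bounds. In MDS-L/CDA cells it therefore includes the start-side probe (log2 -0.015), which was below the background flag there with and without AZA. Between the lines in vehicle, -0.54 became -1.06 with median scaling, -0.91 without scaling, -0.071 with normexp and -0.025 as the mean over probes, and under AZA, -4.27 became -4.77 without scaling and -3.69 with normexp. The count of receptors past 2-fold with AZA in MDS-L cells, 2, was 5 with median scaling, 4 at a ratio of 1.5, and 1 with normexp, with both arrays above background, or with the ratio and Z score. In MDS-L/CDA cells the count of 1 was 0 with normexp and with the mean over probes, 2 without a filter and with the ratio and Z score, and 3 at a ratio of 1.5. Between the lines in vehicle, the count of 1 was 3 with median scaling and 2 without a filter. Under AZA, the count of 4 was 2 with normexp, at a ratio of 3, and with the ratio and Z score. Normexp adds an offset to every signal, so ratios of dim probes are smaller by construction. Median scaling and no scaling change every measured ratio of a comparison by the same amount. The cause of the remaining shifts was not tested. Of 249 alternative values of the other receptor probes, 200 moved by less than the error of a ratio and 16 changed sign, none of them past 2-fold. Median scaling moved the median of all genes by -0.54 with AZA in MDS-L cells and by -0.50 between the lines in vehicle, no scaling by -0.48 between the lines under AZA and by -0.34 in vehicle. The share of increases among all genes past 2-fold with AZA in MDS-L cells was 52.7% and 11.5% with median scaling. In MDS-L/CDA cells it was 45.2%, 29.0% without scaling and 26.3% with normexp. Between the lines it was 42.8% in vehicle, with 3.37%, 7.61% and 12.5% for median scaling, no scaling and normexp, and 51.0% under AZA, with 7.11% without scaling and 22.5% with normexp. No paired analysis was possible because the conditions compared share fewer than 2 replicate numbers. Signals below the lowest value well above background, 0.19 to 0.30, give bounds only.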
